A study of Mus musculus with 3 samples.

Results

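Complement is a cascade of plasma and tissue proteins that tags microbes and particles for uptake. The genes described here are 33 complement components, receptors and regulators of the mouse, chosen by symbol from the 3 activation pathways, the terminal pathway and their receptors and brakes, and all 33 were found among the 53342 genes of the count table. RNA counts came from the lungs of 3 male C57Bl/6 mice, called mouse 4, 5 and 6 after the last digit of their labels. Each mouse was given microparticles made from Mycobacterium abscessus into the trachea, in 50 µL and equal to 1000000 bacteria, and then 5 µg of MIA-602, which blocks signalling by growth hormone-releasing hormone, under the skin every day for 3 weeks. The challenge is used to make granulomas form in the lung, as a model of sarcoidosis, and uses particles, not live bacteria. All 3 mice carry this same treatment and form 1 group. No lung without the particles or without the drug was analysed here, so the values are levels in this condition and show no effect of either.

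Activation starts in the classical pathway with C1q bound to antibody or to a surface, in the lectin pathway with collectins or ficolins bound to sugars, and in the alternative pathway with slow turnover of C3 that factor B, factor D and properdin amplify. All of them cleave C3, whose fragments coat the target and attract cells, and later C5, from which the terminal components build a pore. The liver makes most plasma complement, while macrophages are a main source of C1q, and lung epithelium and fibroblasts make some components locally.

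Total counts were 43845715 in mouse 4, 35674761 in mouse 5 and 31579465 in mouse 6. All 5 markers of alveolar type 2 cells and all 4 of club cells reached 1 CPM in every library. CPM are counts scaled to a library of 1000000 with TMM factors, and are given for mice 4, 5 and 6 in that order or as mean ± SD (n = 3). Mouse 4 stood apart in skeletal muscle transcripts, whose 4 markers summed to 4185, 1524 and 1311 CPM, and in club cell transcripts, whose 4 markers were all lowest there and summed to 8989, 24522 and 21708 CPM. Mouse 5 had the most red cell and hepatocyte transcripts, with sums of 1108, 2408 and 1275 CPM over 4 erythroid markers and of 6.41, 18.8 and 3.97 CPM over 7 hepatocyte markers.

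Complement transcripts were well represented in these lungs. Of the 33 members, 26 reached 1 CPM in every mouse, against 28.5% of all genes in the table. The median member stood at 43.1, 51.8 and 42.6 CPM in mice 4, 5 and 6, and the members together took 0.709%, 0.544% and 0.631% of all counts. C3, the 3 chains of C1q, the C1 inhibitor Serping1, C4b and C5 (gene Hc) led, whereas the lectin pathway proteases, factor I, C8b, C9 and the macrophage receptor Vsig4 were near or below 1 CPM. Past the filter on low counts were 28 members. C8b, C9, Masp1, Masp2 and Vsig4 did not pass.

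**Figure D1:**
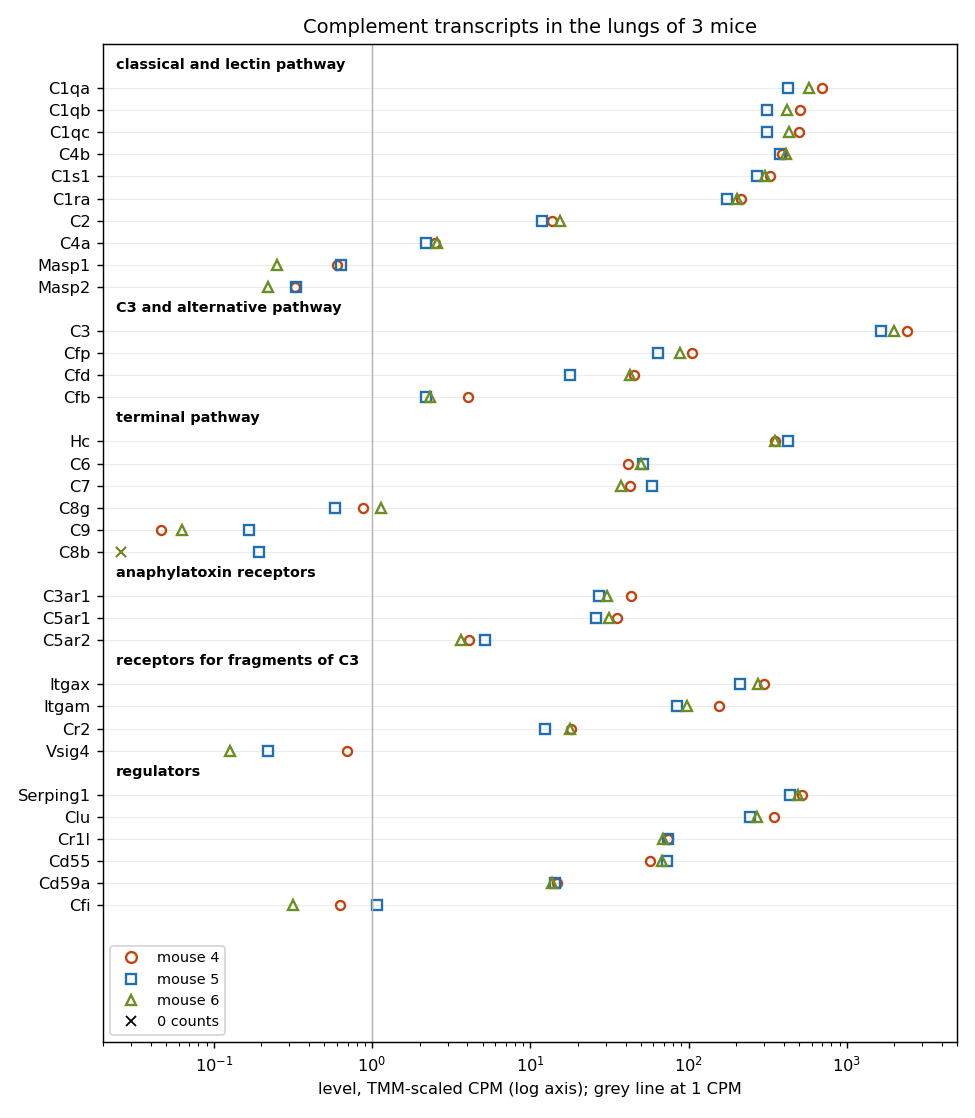
Level of each of the 33 members in mice 4, 5 and 6, as TMM-scaled CPM on a log axis, grouped by role, with 1 symbol per mouse and a cross for 0 counts. C3 lies highest, between 1643 and 2399.7 CPM, and C8b lowest, with counts in mouse 5 only.

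C1q is the recognition unit of the classical pathway, built from A, B and C chains that assemble together and come from 3 neighbouring genes on the minus strand of chromosome 4, within 136880129 to 136898803 (mm10). C1qa (ENSMUSG00000036887) stood at 698, 425 and 581 CPM, C1qb (ENSMUSG00000036905) at 509, 312 and 419, and C1qc (ENSMUSG00000036896) at 496, 312 and 429. For each chain mouse 4 was highest and mouse 5 lowest. The highest mouse exceeded the lowest by 1.64-fold for C1qa, 1.63-fold for C1qb and 1.59-fold for C1qc, while counting error alone would give a CV of 0.692% to 0.813%. The chains kept nearly the same proportions in each lung. C1qb had 0.729, 0.735 and 0.721 times the counts of C1qa, with 95% exact binomial intervals of 0.717 to 0.742, 0.718 to 0.753 and 0.705 to 0.738. C1qc had 0.710, 0.734 and 0.739 times the counts of C1qa. The intervals of the mice overlapped for both ratios, but for C1qc only just, at 0.698 to 0.723 in mouse 4 and 0.722 to 0.755 in mouse 6. Such overlap does not show that the ratios are equal, and their difference was not tested. Per kilobase of exon the ratios were 0.697 ± 0.00671 for C1qb and 0.392 ± 0.00811 for C1qc.

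Markers of monocytes and interstitial macrophages, the cells best known for making C1q, lay in the same direction. All 6 of them were highest in mouse 4 and lowest in mouse 5, with sums of 1070.3, 651 and 745 CPM. Csf1r, the receptor for macrophage colony-stimulating factor, had 322, 218 and 237 CPM, and the lysosomal protein gene Cd68 had 488, 247 and 300.5. C1qa counts were 2.169, 1.95 and 2.45 times those of Csf1r, so this ratio varied 1.26-fold, and 1.43, 1.72 and 1.93 times those of Cd68, a 1.35-fold range, and the counting intervals did not all overlap for either. The 6 alveolar macrophage markers were mixed. Their sums, of which Chil3 was the largest part at 352, 430 and 399 CPM, were lowest in mouse 4, and 1 of the 6 was highest there. Of the 6, 3 were lowest in mouse 4 and 2 in mouse 5, as C1q was. These 2 were Marco, at 76.0, 45.8 and 87.8 CPM, and Fabp4, at 30.7, 21.8 and 31.5. The 3 lowest in mouse 4 were Chil3, Ear2 and Car4. Car4 had 63.5, 130 and 89.8 CPM and was highest in mouse 5, as all 4 endothelial markers were. How specific each of the 6 is to alveolar macrophages in these lungs was not tested. In whole tissue, fewer macrophages and less RNA per macrophage cannot be told apart, and the part of either in the C1q values was not tested.

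The start regions of C1qc and C1qb are shown, and that of C1qa was missing from the reference used. A part of these regions in the variation between mice was not tested. The regions shown run from 250 bases before to 50 after the start of the gene, at chr4:136892865-136893164 and chr4:136886151-136886450 on the minus strand (RefSeq, GRCm38.p6). Capitals mark GAGGAAG, a core of sites for the myeloid factor PU.1, read here on the opposite strand.
C1qc: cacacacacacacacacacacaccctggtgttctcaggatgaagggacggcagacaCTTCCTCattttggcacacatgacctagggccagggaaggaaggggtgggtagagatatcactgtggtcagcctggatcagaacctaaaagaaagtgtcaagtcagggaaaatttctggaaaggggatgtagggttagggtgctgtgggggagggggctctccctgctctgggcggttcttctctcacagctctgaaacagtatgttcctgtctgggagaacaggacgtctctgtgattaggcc
C1qb: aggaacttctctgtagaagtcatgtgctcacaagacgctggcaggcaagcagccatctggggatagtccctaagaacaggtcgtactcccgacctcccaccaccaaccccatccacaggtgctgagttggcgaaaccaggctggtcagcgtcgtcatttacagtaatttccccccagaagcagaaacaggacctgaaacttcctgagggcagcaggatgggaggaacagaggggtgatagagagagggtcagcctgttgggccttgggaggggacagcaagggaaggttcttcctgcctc
The C1qc window held 1 such match and the C1qb window none. On either strand the motif was in 13.6% of 32851 mouse windows of this length and in 3 of the 27 windows of 24 matched members, those of C1qc, C5ar2 and Itgam. TGCTGAC, a core of sites for MAF factors, was in 4.67% of all windows and in those of C8b and Cd55. Neither motif contains the other.

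The proteases that C1q activates, and the serpin that stops them, were abundant and varied by no more than 1.23-fold between mice. C1ra stood at 214, 174 and 202 CPM and C1s1 at 329, 269.7 and 304. Serping1, the C1 inhibitor (ENSMUSG00000023224, chromosome 2, 84765387 to 84775444), had 523, 439 and 492 CPM. C1s1 counts were 1.54, 1.55 and 1.503 times those of C1ra, and Serping1 counts 1.59, 1.63 and 1.62 times those of C1s1. Counting intervals of the mice overlapped for both ratios. Per kilobase of exon, Serping1 stood at 2.14, 2.19 and 2.18 times C1s1, of which 576 exon bases are shared with an antisense gene of 31, 25 and 29 counts. C1ra shares 48.0% of its 50-base windows with its paralog C1rb, which had 18, 21 and 19 counts, and C1s1 shares 24.3% with C1s2, so reads of these pairs may have been split.

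C4 and C2 form the enzyme that carries the classical and lectin pathways to C3. C4b was among the steadiest members, at 392, 381 and 412 CPM (CV 4.04%). C2, its partner, stood at 13.7, 11.8 and 15.5 CPM. In counts C2 was 0.0348, 0.0310 and 0.0376 times C4b. C4a, the sex-limited copy of C4 beside C4b in the MHC region of chromosome 17, had 108, 79 and 82 counts, or 0.640%, 0.574% and 0.627% of those of C4b. C4a is annotated as a processed transcript, and C4b as protein coding. The transcripts are 96.1% identical over 5204 aligned bases of the C4b coding sequence, and 35.2% of the 50-base windows of C4b are found in C4a. Which of the copies a read in such a stretch was counted for is not known, so the C4a level is uncertain. The most divergent 60 coding bases, from base 2705 of the C4b coding sequence, are shown as a stretch that tells the copies apart. A read over any base that differs can do so, and 30.6% of the ungapped 60-base windows of the alignment were identical. Capitals mark the 13 bases that differ.
C4b: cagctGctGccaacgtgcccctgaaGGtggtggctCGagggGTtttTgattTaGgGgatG
C4a: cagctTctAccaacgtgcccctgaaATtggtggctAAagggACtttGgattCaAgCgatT

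The lectin pathway proteases were scarce. Masp1, a protease bound to the recognition proteins, had 26, 23 and 8 counts. Masp2, which cleaves C4 and C2, had 14, 12 and 7. Pooled over the libraries these are 0.514 CPM for Masp1 and 0.297 CPM for Masp2, with 95% exact Poisson intervals of 0.389 to 0.666 and 0.205 to 0.418. These intervals cover counting error only. Masp2 shares 1817 exon bases with Tardbp on the other strand, which had 8905, 7516 and 7118 counts, and without knowledge of strand in the counting its reads cannot be told from those of Tardbp.

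C3, the protein on which the pathways converge (ENSMUSG00000024164, chromosome 17, 57203970 to 57228136), was the most abundant member at 2399.7, 1643 and 1975 CPM. It ranked 22nd, 30th and 27th of all genes by CPM. Mouse 4 lay 1.46-fold above mouse 5. Of the alternative pathway proteins that act on it, properdin (Cfp), which stabilises the convertase and is made by myeloid cells, stood at 105, 63.7 and 88.5 CPM.

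Factor D (Cfd), the protease that activates factor B and a known product of fat cells, was the tested member with the widest difference between mice on the log2(CPM + 0.5) scale. It had 45.1, 17.9 and 42.6 CPM, so mouse 5 lay 2.51-fold below mouse 4 and the other mice lay close together. It was the only tested member over 2-fold apart on the log2(CPM + 0.5) scale, higher in mouse 4 than in mouse 5, as were 1.62% of all tested genes, and lower in mouse 5 than in mouse 6, as were 0.448%. Of all tested genes 0.924% were over 2-fold lower in mouse 4 than in mouse 5, 1.33% higher and 0.306% lower in mouse 4 than in mouse 6, and 0.215% higher in mouse 5 than in mouse 6. For these 4 the count of members was 0. Of 5 adipocyte markers, 4 were lowest in mouse 5 and 4 reached 1 CPM in every mouse, and their sums were 15.2, 8.57 and 15.5 CPM. The fat cell hormone Adipoq had 4.06, 1.49 and 3.60 CPM, so Cfd counts were 11.1, 12 and 11.8 times those of Adipoq. Plin1, another of these markers, had 3.85, 1.19 and 2.21 CPM, and Cfd did not keep a like proportion to it. Lep, a defining adipocyte hormone, was near 0 with 1, 2 and 2 counts. The part of fat tissue in the Cfd values was not tested.

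Factor B (Cfb), the protease part of the alternative C3 convertase, was counted at 4.02, 2.18 and 2.33 CPM. Its counts were 0.00167, 0.00133 and 0.00118 times those of C3. This level carries a limit of annotation. Of the 2825 exon bases of Cfb, 2246 (79.5%) also belong to Gm20547, a gene model on the same strand that spans Cfb and the adjacent C2, and Gm20547 had 0 counts in every mouse. C2 shares 42.8% of its exon bases with it. If reads in shared bases were set aside in the counting, which is not given in the sources used here, both levels would be too low. Per kilobase of unshared exon Cfb stood at 4.91 ± 1.76 CPM and C2 at 6.16 ± 0.836, against 1.007 ± 0.360 and 3.53 ± 0.479 over all exons.

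The terminal pathway was split between abundant early and scarce late components. Hc, which encodes C5 (ENSMUSG00000026874, chromosome 2, 34983331 to 35061438), had 351, 426 and 351 CPM. C6 and C7, which bind the larger fragment of C5 in turn, had 41.6, 51.8 and 50.2 CPM and 42.6, 58.7 and 37.3 CPM. All 3 of these were highest in mouse 5, unlike C3. So were the 4 endothelial markers, with sums of 902, 1245 and 912 CPM, and the 5 alveolar type 2 markers, with sums of 18917, 26276 and 23450 CPM. All 7 hepatocyte markers, all 4 erythroid markers and 3 of 4 club cell markers were highest there too, as were 36.4% of all tested genes. Sums of 5 fibroblast markers were 1816, 2216 and 1853 CPM, of which Inmt had 399, 972 and 500, with 2 markers highest in mouse 5 and 2 in mouse 4. Sums of 4 mesothelial markers were 109, 96.1 and 77.4 CPM, also with 2 highest in mouse 5 and 2 in mouse 4. The part of any of these in the Hc, C6 and C7 values was not tested. Hc counts were accordingly 0.146, 0.259 and 0.178 times those of C3, with counting intervals that do not overlap between mice.

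C8 and C9, which complete the pore, were close to the limit of detection. C8g, the lipocalin chain of C8, had 38, 21 and 36 counts. C8b, its beta chain, had 0, 7 and 0 counts, and 3 counts would be 0.0696 CPM in mouse 4 and 0.0946 CPM in mouse 6. C9, which forms the ring of the pore, had 2, 6 and 2 counts, a pooled level of 0.0901 CPM (95% exact Poisson interval 0.0432 to 0.166). Most counts of both genes came from mouse 5, but the 95% exact Poisson intervals of the mice overlapped. For C8b they were 0 to 0.0856, 0.0778 to 0.399 and 0 to 0.116 CPM. For C9 they were 0.00562 to 0.168, 0.0609 to 0.361 and 0.00764 to 0.228 CPM. All 7 hepatocyte markers were highest in mouse 5, albumin (Alb) among them at 2.79, 8.68 and 1.17 CPM. Only 1 of these 7 markers reached 1 CPM in every mouse. The part of liver RNA in the C8b and C9 counts was not tested.

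The median classical component lay above the median terminal one in each lung, though single genes overlapped. The median of 8 classical genes exceeded that of 6 terminal genes by 4.58, 4.38 and 4.31 on the log2(CPM per kilobase + 0.5) scale, a difference of 4.42 ± 0.14 (SD, n = 3). With 3 mice the exact two-sided sign-flip test cannot go below p = 0.25, so no test was made. Of the 6 terminal genes 3 (C8b, C8g and C9) lay near the limit of detection, while Hc reached 59.99 ± 6.89 CPM per kilobase. The classical genes C2, at 3.53 ± 0.479, and C4a, at 0.391 ± 0.0342, lay below Hc, C6 and C7 in every mouse. C4a was kept among the 8 although it is annotated as a processed transcript, and the difference without it was not computed.

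Receptors for the anaphylatoxins, the small fragments of C3 and C5 that call in and activate leukocytes, were all measured. C3ar1, the C3 fragment receptor, had 43.1, 27.2 and 30.7 CPM and C5ar1, the main C5 fragment receptor, 35.1, 26.2 and 31.5. Both were highest in mouse 4. The other C5 fragment receptor, C5ar2, stood at 4.09, 5.199 and 3.63 CPM, with its highest value in mouse 5, and its counts were 0.116, 0.199 and 0.115 times those of C5ar1.

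Among receptors for fragments of C3, the integrin chains led. Itgax, the alpha chain of complement receptor 4 and a marker of dendritic cells and alveolar macrophages, had 299, 212 and 275 CPM, and Itgam, the alpha chain of complement receptor 3 of myeloid cells, 155, 84.3 and 98.3. Itgb2, their shared beta chain, stood at 636, 368 and 424 CPM. Itgam held a nearly fixed proportion to it, at 0.243, 0.229 and 0.232 in counts with overlapping intervals, while Itgax did not, at 0.470, 0.576 and 0.648. Both alpha chains were highest in mouse 4. Sums of 6 neutrophil markers were 269, 236 and 177 CPM, those of 6 alveolar macrophage markers 577, 684 and 663, and those of 5 dendritic cell markers 139, 114 and 149.6, and their part in the integrin values was not tested. Of Itgam's 5024 exon bases, 3450 also belong to Gm49368 on the same strand, which had 10, 1 and 2 counts, and per kilobase of unshared exon Itgam stood at 71.5 ± 23.7 CPM against 22.4 ± 7.43 over all exons. With either reading its order among the mice is the same, and its order against Itgax is not settled.

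Cr2, the receptor of B cells and follicular dendritic cells for C3 fragments, had 18.0, 12.4 and 17.8 CPM. All 5 B cell markers were lowest in mouse 5 too, with sums of 299.5, 223 and 338 CPM, but 4 of them were highest in mouse 6 and Cr2 in mouse 4. The 3 follicular dendritic cell markers found summed to 49.4, 34.4 and 45.3 CPM, nearly all of it Cxcl13, and 1 of them reached 1 CPM in every mouse. The part of either cell type in the Cr2 values was not tested. Vsig4, a C3 fragment receptor of resident tissue macrophages, had 30, 8 and 4 counts. Its interval in mouse 4, 0.470 to 0.994 CPM, lay above that in mouse 5, 0.0955 to 0.436, and in mouse 6, 0.0344 to 0.323 (95% exact Poisson, counting error only).

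**Figure D2:**
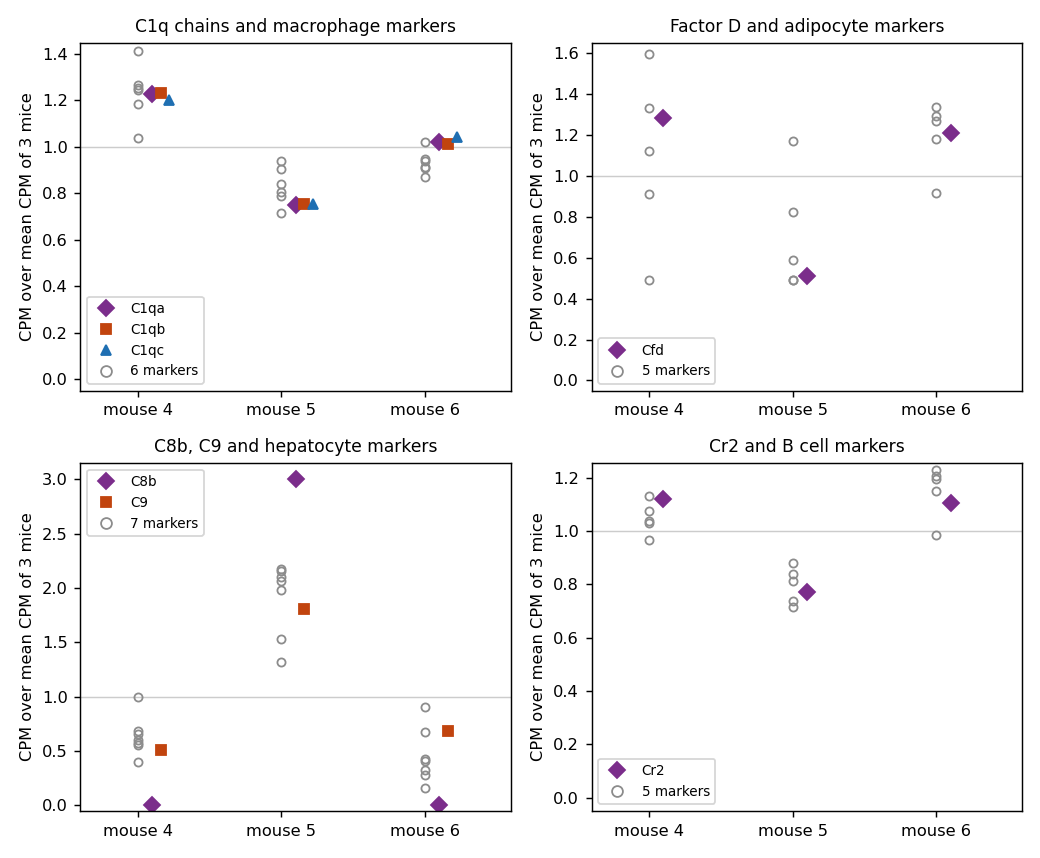
CPM in each mouse divided by the mean over the 3 mice, for complement genes (filled symbols) and for markers of a cell type known to make them (open grey circles). C1q chains and the 6 monocyte and interstitial macrophage markers are highest in mouse 4 and lowest in mouse 5. Alveolar macrophage markers, not drawn, summed to 577, 684 and 663 CPM, with 2 of the 6 lowest in mouse 5. Cfd lies at its lowest in mouse 5 with 4 of 5 adipocyte markers. C8b and C9 lie with the 7 hepatocyte markers at their highest in mouse 5, on 7 and 6 counts there, with counting intervals that overlap between mice. Cr2 is lowest in mouse 5 with the 5 B cell markers.

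Regulators of host cell membranes included the steadiest members after C4b. Cr1l, known as Crry and the broad membrane brake on C3 cleavage in mice, had 74.1, 74.2 and 69.0 CPM, with a CV of 4.12%. Cd59a, which stops insertion of C9 into membranes, had 14.8, 14.2 and 13.6 CPM, with a CV of 4.18% where counting error alone would give 4.38%. Cd55, which speeds decay of the convertases, had 57.1, 72.9 and 67.8 CPM and was lowest in mouse 4. Clu, or clusterin, a secreted chaperone that binds the forming pore, stood at 344, 245 and 271 CPM. Factor I (Cfi), the plasma protease that inactivates C3 and C4 fragments, had 27, 39 and 10 counts. Its interval in mouse 5, 0.767 to 1.47 CPM, lay above that in mouse 6, 0.151 to 0.580.

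Allowing for transcript length, C1qa was highest at 546 ± 132 CPM per kilobase, followed by C3 at 389.995 ± 73.8 and C1qb at 380.0 ± 90.6. C1qa lay above C3 in 3 of 3 mice, though their ranges overlapped, and C3 lay above C1qb in 1 of 3. C1qc and Serping1 came next at 213 ± 48.3 and 208 ± 18.2, then C1s1 at 96.2 ± 9.503 and Clu at 83.4 ± 15.03 CPM per kilobase. C4b, C1ra, Hc, Itgax, Cfp and Cfd followed between 69.3 and 38.2. Of 32 neighbouring pairs in this order, 24 had overlapping ranges over the mice, while the upper gene of the pair was the higher in 3 of 3 mice for 16 pairs, since both are measured in the same animals. Ranges did not overlap between C1qb and C1qc, between Serping1 and C1s1, between C5ar1 and Cd59a, and between Cr1l and C2, nor at 4 places lower in the order.

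**Figure D3:**
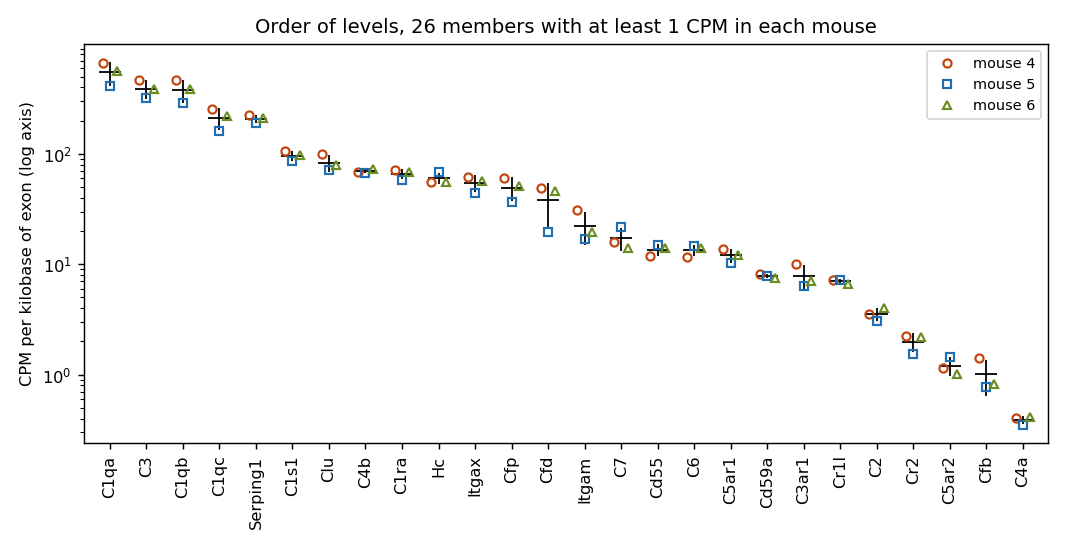
Level per kilobase of union exon length (log axis) for the 26 members with at least 1 CPM in each mouse, in falling order of the mean, with coloured symbols for mice 4, 5 and 6 and black bars for mean ± SD. C1qa, C3 and C1qb lead between 380.0 and 546, and C4a is last; the places of Cfb, C2 and Itgam depend on exon bases shared with other gene models.

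A common order of the mice ran through most members. Of the 28 tested, 17 were highest in mouse 4 (33.5% of all tested genes) and 20 were lowest in mouse 5 (36.8% of all tested genes). The full order of mouse 4 above mouse 6 above mouse 5 was seen in 16 of 28, or 57.1%, against 19.7% of all tested genes. These 16 were C1qa, C1qb, C1qc, C1ra, C1s1, C3, Cfb, Cfd, Cfp, C3ar1, C5ar1, Serping1, Cr2, Itgam, Itgax and Clu. Hc, C6, C7, Cfi, C5ar2, Cd55 and Cr1l, 7 of 28, were highest in mouse 5 (36.4% of all tested genes), and C2, C4a, C4b and C8g, 4 of 28, in mouse 6 (30.1%). The median member lay 0.33 higher in mouse 4 than in mouse 5 on the log2(CPM + 0.5) scale, where the median of all tested genes was 0.00. Mouse 4 also had the deepest library. By summed CPM it had the most monocyte and interstitial macrophage, muscle, neutrophil, mesothelial and follicular dendritic cell transcripts. It had the fewest alveolar macrophage, alveolar type 2, club cell, endothelial, erythroid and fibroblast transcripts. The alveolar macrophage sum was mostly Chil3, and the markers of that list differed in their order. The sums that were lowest in mouse 4 all ran in the reverse order, mouse 5 above mouse 6 above mouse 4. Of the sums highest in mouse 4, the monocyte and interstitial macrophage and the follicular dendritic cell sums were lowest in mouse 5, and the others in mouse 6. The part of each of these in the members' order was not tested. Members vary together within an animal, so these counts describe 3 mice and are not independent evidence for each gene.

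**Figure D4:**
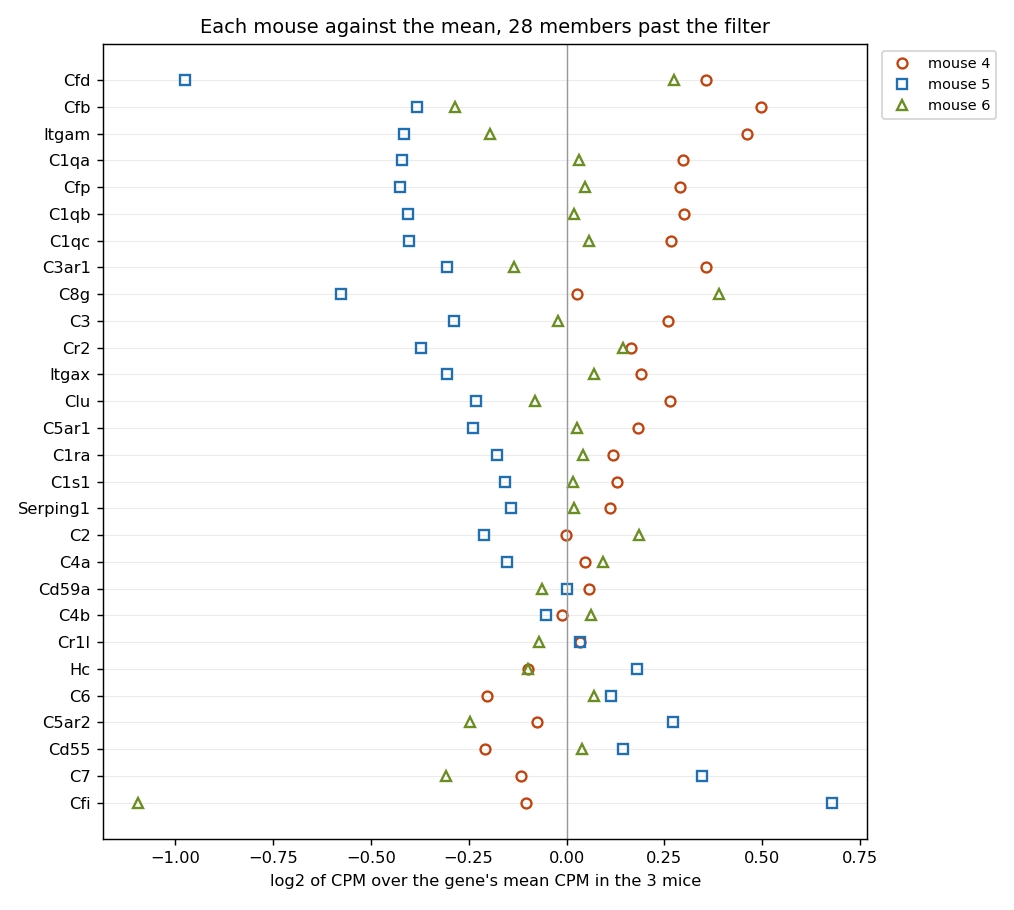
Log2 of the CPM in each mouse over the mean CPM of the 3 mice, for the 28 members past the filter, sorted by the ratio of mouse 4 to mouse 5 with the highest at the top. Cfd in mouse 5 is the farthest low value of that mouse, and 20 of the 28 members are lowest in mouse 5.

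The spread between mice was then tested gene by gene in edgeR, each residual quasi-dispersion against the fitted trend, over 17636 genes. None of the 28 members passed a Benjamini-Hochberg adjusted p of 0.05, and none of all genes did (0%). At an unadjusted p under 0.05 there were 5 of 28 members (Cfd, Itgam, Cfp, C7 and C3ar1), against 4.92% of all genes. DESeq2 marked 0 of 28 members as dispersion outliers, against 0.578% of all genes. Cfd came nearest, with an adjusted p of 0.837 in edgeR. Across the tested members the median CV was 18.4%, and across all tested genes 11.2%.

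Partner transcripts differed in how far their ratio varied between mice. The ratio varied by 1.02 to 1.04-fold among the C1q chains and among the C1 proteases and their inhibitor, by 1.06-fold for Itgam with Itgb2 and by 1.08-fold for Cfd with Adipoq. It varied by 1.21-fold for C2 with C4b, 1.26-fold for C5ar1 with C3ar1, 1.28-fold for Cd55 with Cr1l and 1.38-fold for Itgax with Itgb2. Wider still were Cfb with C3 at 1.42-fold, Itgax with Itgam at 1.45-fold and C5ar2 with C5ar1 at 1.72-fold. Overlap of the counting intervals depends on depth and was seen for Cfb with C3, whose Cfb counts are low, but not for C2 with C4b, so it does not rank the pairs. C6 counts were 0.977, 0.883 and 1.35 times those of C7, so 2 terminal components that bind in sequence varied 1.53-fold against each other. The pairs were chosen with the values already seen, most by known partnership. Cfd with Adipoq, and C1qa with Csf1r and with Cd68, instead set a complement gene beside a single cell marker, and other markers could give other ratios. Ratios over all pairs of genes were not computed, so a narrow range is not shown to be particular to partners. The fibroblast marker Col1a1, at 644, 512 and 609 CPM, had the same order of mice as C1ra and C1s1.

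**Figure D5:**
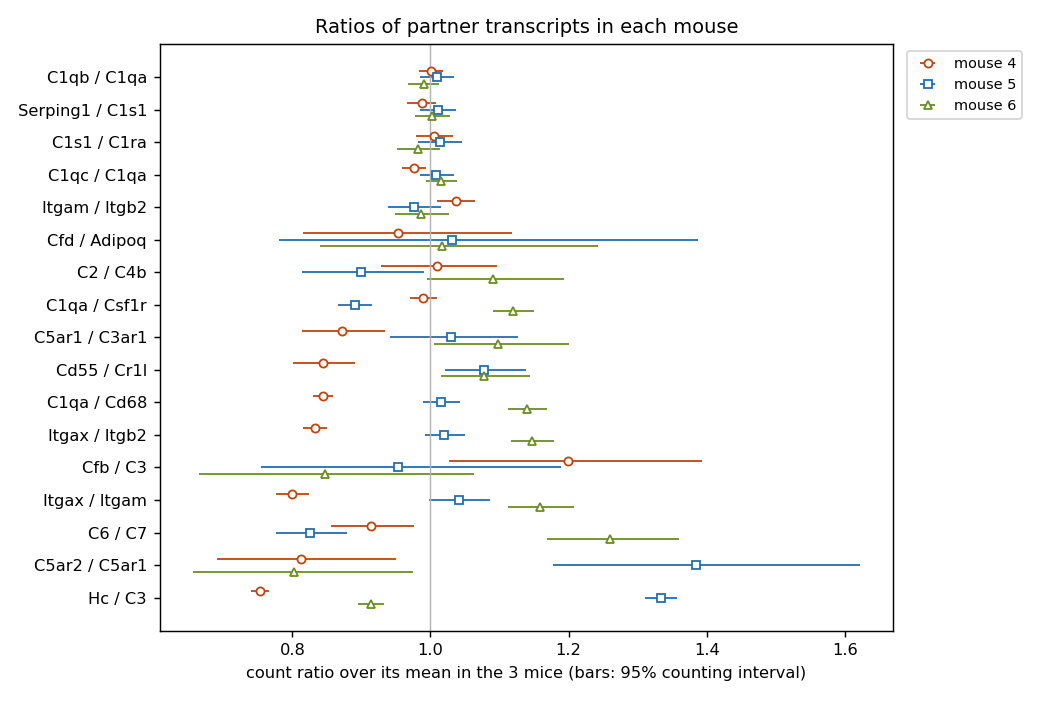
Count ratio of 17 pairs of transcripts in mice 4, 5 and 6, divided by its mean over the mice, with 95% exact binomial counting intervals as bars and pairs sorted by their spread. C1qb over C1qa varies least, 1.02-fold, and Hc over C3 most, 1.77-fold.

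Of 27 further complement genes listed for comparison, 16 reached 1 CPM in every mouse. Cd93, a receptor of endothelial and myeloid cells once proposed to bind C1q, stood at 214 ± 38.7 CPM and the scavenger collectin Colec12 at 81.9 ± 6.82. C1qbp had 48.0 ± 3.00 CPM, C1rl 18.3 ± 3.32, Susd4 14.7 ± 1.905 and vitronectin (Vtn) 11.0 ± 1.86. Means between 1 and 7 CPM were found for Cd46, Cd5l, Fcna, Csmd1, Cpn1, Ptx3, Mbl1 and Cd59b. Among the scarcest of the list, picked by their values, there were 1, 5 and 3 counts for C8a, 4, 4 and 5 for C4bp and 2, 4 and 0 for Mbl2. In edgeR 0 of the 22 tested genes of this list passed the adjusted threshold for spread, and 5 had an unadjusted p under 0.05, Fcna, Fcnb, Itgb2 and Cd5l among them.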

How the data were processed

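The deposited table gives whole-number counts for each Ensembl gene, and the authors applied no scaling to them, as the values show. Reads were handled with STAR 2.5.2a, Trim Galore 0.6.2 and bcl2fastq 2.17, and the build was mm10, per the submitters' processing notes. Libraries came from total RNA of lung, prepared with a Nugen kit, per the labels' protocols. Counter, annotation and strand setting: not given in the sources used here.

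Symbols and exon lengths came from GENCODE M21, which matched 53237 of 53342 identifiers. CPM used TMM factors, and logs log2(CPM + 0.5). Genes passing filterByExpr (17636) were tested for spread in edgeR 4.0.16 (R 4.3.3) with an intercept alone, the older quasi-likelihood fit and robust empirical Bayes. Each gene's dispersion was compared with the trend by an F test of the upper tail (prior df 3.88), with Benjamini-Hochberg adjustment. The test was tried on simulated data with less spread than the fitted trend, so that trial does not show its power on the real counts. DESeq2 1.42.0 was an alternative. Intervals are exact at 95% (Python 3.11.15, scipy 1.17.1) and cover counting error only, and 3 counts is the floor for a count of 0. The C4 transcripts were aligned with Biopython 1.88. The design text counts 3 mice, so each library was taken as an animal.

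Of 33 members, 8 share exon bases with another gene model. The members, lists, pairs and motifs were chosen with earlier results of these data known. Every member was named, with the other complement genes that reached 1 CPM in each mouse and markers that a result turns on, except items not reported here; others were chosen after their values were seen. Alternatives were other scaling, pseudocounts, filters, lengths, DESeq2 and leaving out each mouse.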

Additional observations from a re-analysis of the deposited data

How the results depend on the processing

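The number of members at 1 CPM in every mouse stayed at 26 without TMM factors and with DESeq2 size factors and was 27 with 0.5 CPM as the limit. The median member level, 5.53 on the log2(CPM + 0.5) scale, was 6.08 when members below the filter were left out, by construction. The excess of classical over terminal components, 4.42, was 5.44 without division by length, 4.13 with a pseudocount of 1 and 3.72 with means in place of medians. It was 4.29 with the length of the longest transcript and 4.42 with unshared exon length, both chosen after seeing the data. With no filter on low counts, 2 members passed the test of spread, Cfd (edgeR adjusted p = 2.92e-08) and Itgam (adjusted p = 0.00228), among 629 of 30751 genes; the cause was not tested. The number of members over 2-fold apart was 1 in the main analysis. Leaving out each mouse in turn gave 26 in each case for members detected, 5.44 to 5.58 for the median level, 4.34 to 4.48 for the excess, 0 in each case for spread and 0 to 1 for 2-fold differences, where it was 0 without mouse 5, the mouse in which Cfd was low. Levels of all 33 members moved by less than 1 SD without TMM factors. Of the member levels, 2 moved by over 1.5 times without mouse 5 (C8b, which then has 0 counts, and C9) and 1 without mouse 4 (Vsig4, to 0.499 times its mean). No paired analysis was possible because all samples belong to 1 group. Depth limits C8b, C8g, C9, Cfi, Masp1, Masp2 and Vsig4 most.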

Other observations

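Some macrophage-linked genes of the humoral defence system varied more between the mice than the C1q chains. Cd5l, a scavenger-type protein secreted by tissue macrophages, stood at 11.1, 4.15 and 3.69 CPM in mice 4, 5 and 6. Fcna, a ficolin that starts the lectin pathway, had 7.22, 3.26 and 3.31 CPM, and Fcnb, its relative of myeloid cells, had 86, 27 and 18 counts. Each of these was more than 2-fold higher in mouse 4 than in mouse 5 and than in mouse 6 on the log2(CPM + 0.5) scale, 3 of the 22 tested genes of their list. For the comparisons taken singly the shares of all tested genes were 1.62% and 1.33%, and the share that met both was not computed. Fcnb passed narrowly against mouse 5, with a difference of 1.002 on that scale. The member Vsig4, with 30, 8 and 4 counts, has the same highest mouse. In edgeR the adjusted p for spread was 0.955 for Cd5l, Fcna and Fcnb alike, Vsig4 was below the filter, and the genes were singled out after their values were seen. Mannose-binding lectin Mbl1 lay the other way, at 1.79, 2.93 and 2.90 CPM.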
